A study of Mus musculus with 8 samples.

Results

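Fos, Junb, Atf3, Btg2 and Cyr61 are early response genes, whose transcription starts within a short time of a stimulus and also starts when a tissue is taken apart into single cells. They were taken by name from the authors' deposited table of a comparison between ABCA1 knockout (KO) and control (WT) mouse retina, and all 5 were found among its 1802 genes. The table covers 5 libraries titled KO, with the genotype ABCA1KO, and 3 libraries titled WT, with the genotype Control. Retinas of both genotypes were dissociated with papain and captured as single cells for 3′ sequencing, as the labels' protocols describe. Strain, age, the deleted part of the gene and the cells that carry the deletion are not given in the labels, nor do they say whether each library is a separate animal.

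Early response genes need no newly made protein for their induction, because the factors that switch them on, such as CREB and serum response factor, are already present. Fos and JunB are subunits of the dimeric transcription factor AP-1, and ATF3 is a stress-induced relative that pairs with Jun proteins or with itself. BTG2 is an antiproliferative protein of the BTG/TOB family that recruits the deadenylase complex which shortens mRNA tails. CYR61, now named CCN1, is a secreted matrix protein that binds integrins. In retina several of these genes are known to respond to injury and light as well as to handling of the tissue. The labels list no undissociated retina, so the part that dissociation had in the values below was not tested.

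Each value is a summary over all cells of a genotype. A log difference is the KO minus WT difference of natural-log averages, over values that appear to be batch-integrated, and it should not be read as a fold change; a share is the percentage of cells with a value above 0. Such a share is not the share of cells in which the transcript was detected: Lhx1, a marker of horizontal cells, which are rare in retina, is above 0 in 72.4% of cells from KO and 36.2% from WT per the authors' deposited table. Values per library, cell numbers, errors and depths are not in the table, so the spread between libraries and the precision of the shares are unknown. Fewer cells that make a transcript and less transcript per cell cannot be told apart in such pooled values. The authors' deposited table lists Abca1 itself above 0 in 48.7% of cells from KO and 30.5% from WT, with a log difference of 0.0294 (adjusted p = 4.49e-05), so the labelled loss of the gene does not show in these values. The gain of 18.2 points for Abca1 was below the median gain of 20.8 points over all genes, and 97.9% of the genes had a larger share in KO. Since the deleted part and the cells that carry the deletion are not given, these values do not check the labels.

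The stretches upstream of the 5 genes are shown because all 5 held a CRE half-site, the core of the element that CREB and ATF proteins bind. Each is the 180 bases before the gene's RefSeq start in GRCm38.p6, read 5′ to 3′ on the gene's own strand, with motif matches in capitals. The windows lie at chr12:85473710-85473889 on the plus strand for Fos, and on the minus strand at chr8:84978749-84978928 for Junb, chr1:191183334-191183513 for Atf3, chr1:134079156-134079335 for Btg2 and chr3:145649986-145650165 for Cyr61.
Fos: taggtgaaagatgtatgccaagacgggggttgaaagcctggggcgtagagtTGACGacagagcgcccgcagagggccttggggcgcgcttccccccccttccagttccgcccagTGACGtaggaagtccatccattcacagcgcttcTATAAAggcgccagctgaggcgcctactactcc
Junb: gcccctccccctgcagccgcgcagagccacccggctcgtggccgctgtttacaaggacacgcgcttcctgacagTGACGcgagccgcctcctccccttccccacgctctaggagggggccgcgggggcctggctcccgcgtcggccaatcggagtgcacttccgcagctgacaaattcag
Atf3: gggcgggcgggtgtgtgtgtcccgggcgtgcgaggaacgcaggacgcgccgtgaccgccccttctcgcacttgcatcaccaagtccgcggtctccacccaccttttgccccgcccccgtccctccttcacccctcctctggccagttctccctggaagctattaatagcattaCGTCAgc
Btg2: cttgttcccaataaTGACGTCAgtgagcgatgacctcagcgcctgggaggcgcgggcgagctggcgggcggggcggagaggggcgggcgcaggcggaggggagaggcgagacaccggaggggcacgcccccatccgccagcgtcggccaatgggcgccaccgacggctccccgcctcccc
Cyr61: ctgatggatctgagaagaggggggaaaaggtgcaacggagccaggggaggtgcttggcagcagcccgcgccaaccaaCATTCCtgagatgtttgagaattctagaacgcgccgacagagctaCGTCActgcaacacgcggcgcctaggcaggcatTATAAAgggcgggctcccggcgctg

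Matches were looked for on both strands of the whole RefSeq window of 300 bases, 250 before and 50 after the start. The CRE half-site TGACG was found in 5 of 5 windows, against 20.8% of 32851 RefSeq promoter windows and 25.2% of the 1882 windows of genes in the table. In Fos it lay at -129 to -125 and at -66 to -62, counted from the RefSeq start, and in Junb at -106 to -102. In Atf3 it lay on the other strand at -7 to -3, and in Cyr61 on the other strand at -58 to -54. Btg2 alone among the 5 held the full CRE, TGACGTCA, at -166 to -159, which contains 2 overlapping half-site matches, one on each strand, and 1.79% of all windows held a full CRE. A match describes letters in the window and is not evidence of binding.

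The other motifs were less shared. The TATA box TATAAA was present in the windows of Fos, at -33 to -28, Cyr61, at -25 to -20, and Junb, against 13.6% of all windows. The Junb match began at the RefSeq start itself, at 1 to 6, which is 30 to 25 bases before the start of Junb in the GENCODE annotation and outside the stretch shown. Cyr61, a known target of the YAP and TEAD pathway, held the TEAD motif GGAATG on the other strand at -103 to -98, and 14.7% of all windows held it. The CArG box of the serum response element and the AP-1 motif TGANTCA were in 0 of the 5 windows, against 1.63% and 7.81% of all windows. The windows are short, and the RefSeq start of Atf3 lies 34706 bases inside the gene as GENCODE annotates it, so elements elsewhere were not searched.

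**Figure D1:**
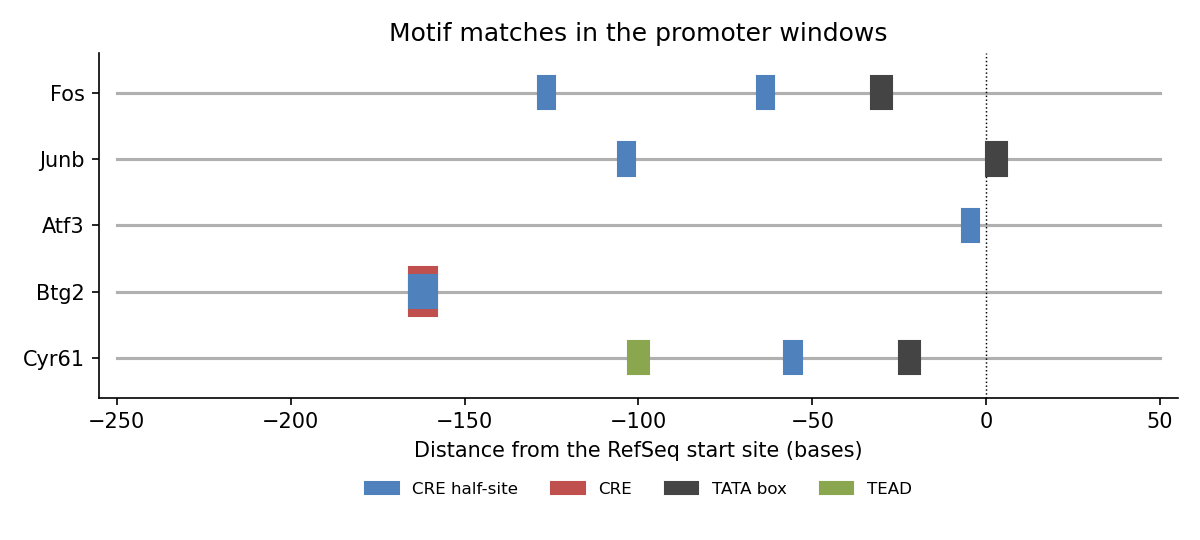
Motif matches in the 300-base RefSeq promoter window of each gene, plotted by distance from the RefSeq start site in bases. Blue blocks are CRE half-sites, which all 5 genes carry; the red block in Btg2 is the full CRE that contains its half-sites; dark blocks are TATA boxes and the green block is the TEAD motif of Cyr61.

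All 5 genes were called at an adjusted p under 0.05 in the authors' deposited table: Fos, Atf3, Btg2 and Cyr61 were higher in KO, and Junb was lower. The table called 93.2% of its genes, 69.1% as higher and 24.1% as lower, so 4 higher and 1 lower is near the background. That background covers listed genes only: none has a raw p above 0.00938, and 198 of 2000 features are not listed. Fos and Btg2 lay above the upper quartile of all log differences (0.0289), Atf3 and Cyr61 between the quartiles, and Junb below the lower quartile (-0.000291). The median log difference of the 5 was 0.0188, against 0.010 over all listed genes. The shares above 0 were larger in KO for 5 of 5 genes, as they were for 97.9% of the table.

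Fos, on chromosome 12 from 85473890 to 85477273 in GRCm38 (ENSMUSG00000021250.13), had the highest log difference of the 5 genes. Its KO share in the authors' deposited table was 75%, against a WT share of 45.7%. The authors' deposited table gives Fos a log difference of 0.0454 and lists its raw and adjusted p both as 0. It ranked at 227 from the highest of 1802 log differences, above 87.4% of the genes. The gain of 29.3 percentage points in its share ranked at 113 and was the largest of the 5 genes, against a median gain of 20.8 points over all genes.

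Junb, on chromosome 8 from 84974484 to 84978718 (ENSMUSG00000052837.6), was the one gene of the 5 with a lower log difference. The authors' deposited table puts the log difference of Junb at -0.0191 (adjusted p = 2.87e-238), and 6.55% of all genes had a lower one. Its share of cells above 0 was nonetheless larger, at 78.5% in KO and 50.8% in WT per the authors' deposited table, the highest share of the 5 genes in either genotype. The gain of 27.7 points exceeded that of 89.7% of the genes. A lower mean beside a larger share was common in the table, since 454 of the 466 genes with a log difference below 0 (97.4%) also had a larger KO share.

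Fos and Junb, which encode AP-1 subunits that can pair with each other, thus had like shares and log differences of opposite sign. Their gains differed by little, 29.3 points for Fos and 27.7 points for Junb, whereas their log differences stood 0.0645 apart, the whole range of the 5 genes. The table gives no error for either value, so the difference between the 2 genes was not tested.

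Atf3, on chromosome 1 from 191170296 to 191218039 (ENSMUSG00000026628.13), was close to the middle of the table. Its KO share was 60.8% and its WT share 38.3% in the authors' deposited table. The authors' deposited table gives Atf3 a log difference of 0.00649 (adjusted p = 1.69e-60), with 42.7% of the genes lower. Atf3 was called higher against 0 but stood at -0.00355 once the median gene was subtracted, so its direction turns when the shift of the whole table is taken off. Its gain of 22.5 points was near the median gain.

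Btg2, on chromosome 1 from 134075170 to 134079120 (ENSMUSG00000020423.6), was nearly level with Fos. Its KO share was 75%, the same as that of Fos, and its WT share 47.9% in the authors' deposited table. For Btg2 the authors' deposited table lists a log difference of 0.0439 (adjusted p = 1.99e-209), at rank 249 from the highest. The gain of 27.1 points exceeded that of 87.5% of the genes.

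Cyr61, on chromosome 3 from 145646976 to 145649981 (ENSMUSG00000028195.4, named Ccn1 in the annotation), differed from the other four in its shares. Its KO share was 29.2% and its WT share 22.8%, per the authors' deposited table. The gain of 6.4 points was the smallest of the 5, and 7.44% of all genes had a smaller one. With Cyr61 the authors' deposited table pairs a log difference of 0.0188 (adjusted p = 4.25e-228), at rank 665 from the highest. For Cyr61 the log difference therefore lay above the median gene and the gain in share below the median gain, the reverse of Junb and Atf3.

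**Figure D2:**
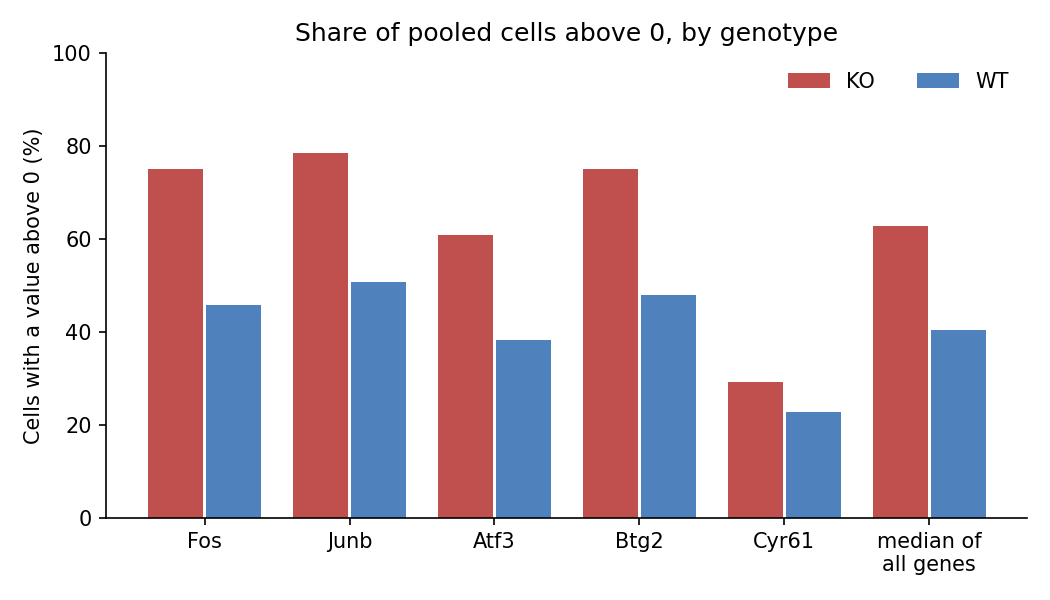
Percentage of all pooled cells with a value above 0 for each gene, KO (red) left of WT (blue), with the median over all 1802 listed genes at the right. Each bar is 1 value of the authors' deposited table without an error. Junb, Fos and Btg2 stand at 75% to 78.5% in KO, above the median gene at 62.7%, and Cyr61 stands lowest in both genotypes.

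Log differences in this table vary with the share of cells above 0, so each gene was also read against listed genes with a WT share within 5 percentage points of its own. Among 673 genes like Fos in this respect, 81.1% had a lower log difference, and among 509 genes like Btg2, 78.0% did. Cyr61 stood higher in its band than in the whole table, above 87.1% of 170 genes, whose median was 0.00353. Junb stood near the bottom of its band as well, with 5.45% of 312 genes lower, and 23.7% of those genes had a log difference below 0. Atf3 was above 35.5% of 771 genes. Relative to the median of its own band, Fos stood at 0.0271, Btg2 at 0.0261, Cyr61 at 0.0153, Atf3 at -0.00734 and Junb at -0.0371.

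The genes most like each of the 5 in their pair of shares, over the 2 pooled genotypes, had log differences from close to its own to far from it. Nearest to Fos were Lrtm1, with a log difference of 0.0649, and Sema5a, with 0.0355, in the authors' deposited table. Nearest to Junb were Tubb2a, at 0.0429, and Arhgap31, at 0.00649, in the authors' deposited table, both above 0 where Junb was below it. Nearest to Atf3 were Klhl33, at 0.0133, and Tep1, at 0.00795 and so close to Atf3 at 0.00649, in the authors' deposited table. Nearest to Btg2 were Kcne2, at 0.0206, and Zfp131, at 0.0515, in the authors' deposited table. Nearest to Cyr61 were Adamts18, at 0.0340, and the pigment gene Tyrp1, at 0.0265, in the authors' deposited table, both higher than Cyr61. The distance was at most 1 percentage point for each of these genes.

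**Figure D3:**
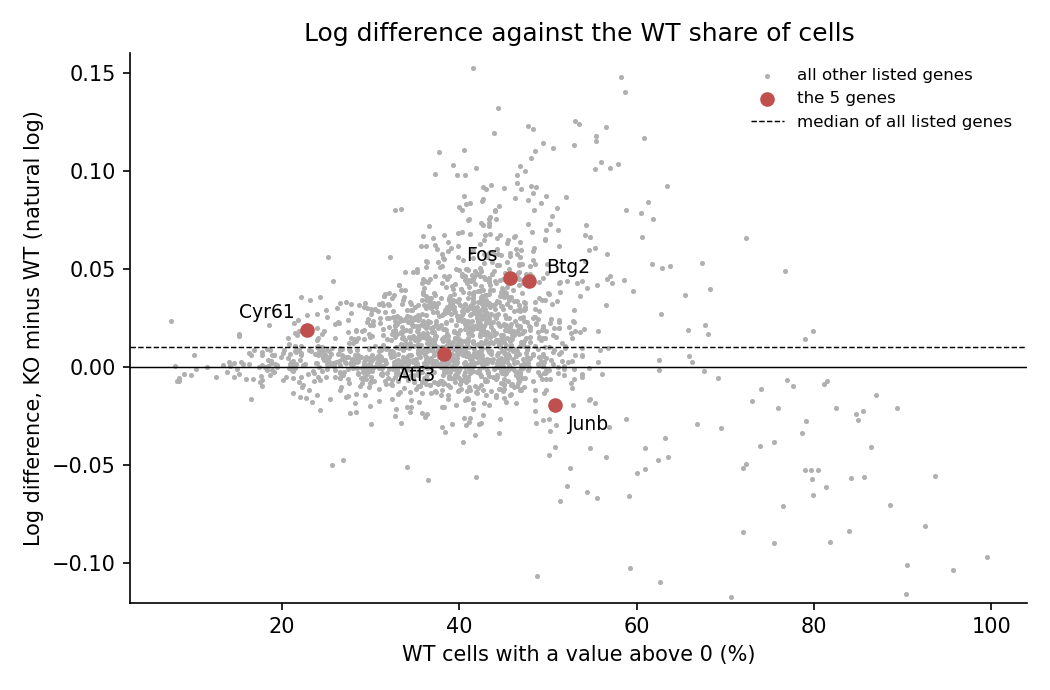
Log difference (KO minus WT, natural log) against the percentage of WT cells above 0, for all genes of the authors' deposited table (grey) and the 5 genes (red). The solid line is 0, the dashed line the median of all genes, and 33 genes lie outside the drawn range. Fos and Btg2 lie together above the median, Atf3 between 0 and the median, and Junb below 0.

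The other genes of the early response were called in proportions near those of the whole table, with a lower median. Of 111 such genes in 5 lists by role, 37 were listed, and 74 were not, which does not show that they were unchanged. Of the 37, the authors' deposited table called 24 higher (64.9%) and 9 lower (24.3%), against 69.1% and 24.1% of all its genes. Their median log difference was 0.00295, against 0.010 over all genes, and 10 of the 37 lay above that median gene. The KO share was larger for 35 of the 37, with a median gain of 19.3 points.

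Among AP-1 and related factors, 5 genes besides Fos, Junb and Atf3 were listed, of which the authors' deposited table called 3 higher and 2 lower. Fosb, a relative of Fos, had a KO share of 59.7% and a WT share of 44.9%, and the authors' deposited table puts its log difference at 0.0142 (adjusted p = 3.22e-14). Cebpb, a stress and inflammation factor, was lower at -0.00669 in the authors' deposited table. Jun, the usual partner of Fos and chosen after its values were seen, had shares of 78.7% in KO and 51.6% in WT, near those of Junb, and the authors' deposited table lists its log difference as 0.00286 (adjusted p = 2.54e-239), above 0 and below the median gene. All 8 listed genes of this role thus lay between -0.0191 for Junb and 0.0454 for Fos in the authors' deposited table.

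Other immediate early regulators gave 7 higher and 3 lower calls among 10 listed genes in the authors' deposited table. The zinc finger factor Klf6, at 0.0117, and Ier2, at 0.0101, had higher calls in the authors' deposited table. Among the helix-loop-helix inhibitors, Id2 was called higher at 0.00621 and Id3 lower at -0.00693 in the authors' deposited table. Id1, named after its values were seen, was also called higher, at 0.00263 in the authors' deposited table. Id1 and Id2 both lay below the median gene. The median of the 10 was 0.00279, and 2 of them lay above the median gene.

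Feedback and growth arrest genes other than Btg2 had 7 higher calls, 1 lower call and 1 gene not called in the authors' deposited table. Tob2, of the same antiproliferative family as Btg2, had a KO share of 63.0% and a WT share of 39.1%, with 0.0271 as its log difference per the authors' deposited table (adjusted p = 1.81e-42). Gadd45g, a growth arrest and stress gene, stood at 0.0109 and the mRNA decay factor gene Zfp36l2 at 0.00813, called higher as well per the authors' deposited table, though Zfp36l2 lay below the median gene. Btg2 had the highest log difference of the 10 listed genes of this role.

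Matricellular and secreted genes other than Cyr61 gave 3 higher and 2 lower calls, and 3 of the 8 listed, Thbs1, Vgf and Edn1, named after their values were seen, were not called in the authors' deposited table, but were under Benjamini-Hochberg adjustment. Amotl2, like Cyr61 a target of YAP, stood at 0.0183, next to Cyr61 at 0.0188, with a KO share of 37.5% and a WT share of 21.9% per the authors' deposited table (adjusted p = 5.49e-56). Ctgf, a relative of Cyr61 in the CCN family and another YAP target, was lower at -0.00537 in the authors' deposited table (adjusted p = 7.52e-84), with a KO share of 50.6% and a WT share of 26.5%. The neurotrophin gene Bdnf was called higher at 0.00528 in the authors' deposited table, below the median gene.

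Heat shock genes, which also rise during dissociation, spread most. The authors' deposited table called 4 of the 5 listed higher and 1 lower, among them Hspb1 at 0.105, Hsp90ab1 at 0.101, Hspa5 at 0.0403 and Hsp90aa1 at -0.0649. Their range took in that of the 5 early response genes on both sides.

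**Figure D4:**
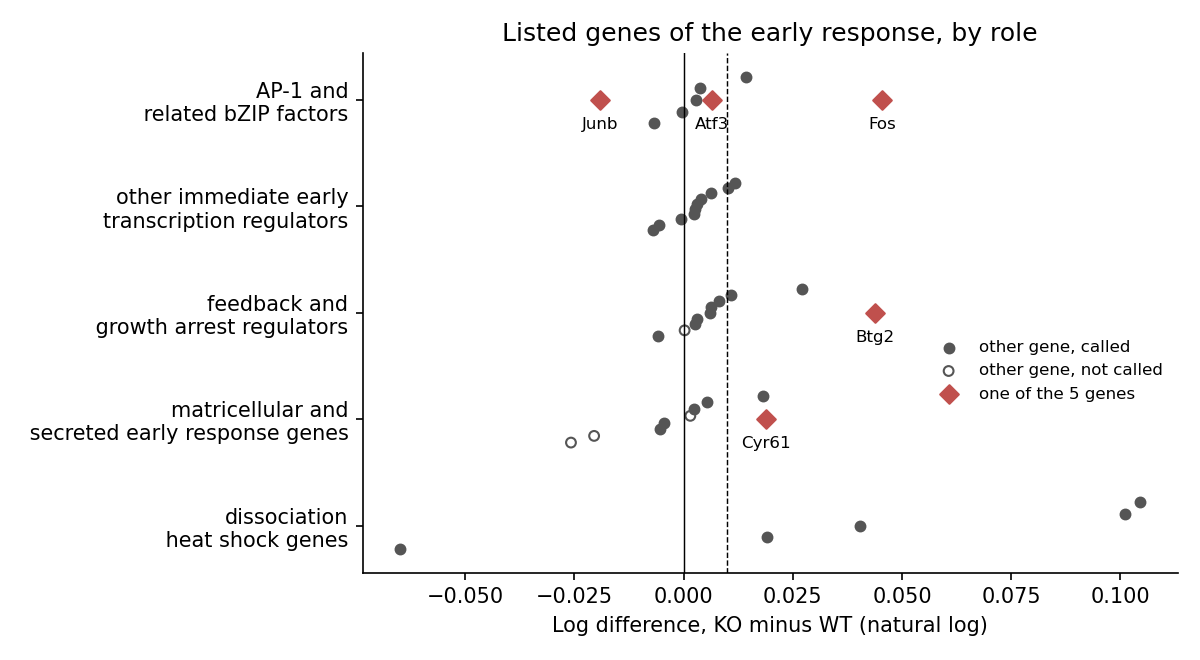
Log difference (KO minus WT, natural log) of every listed gene in 5 lists of early response and dissociation genes, 1 row per role. Red diamonds are Fos, Junb, Atf3, Btg2 and Cyr61, filled circles other called genes and open circles genes that were not called; the solid line is 0 and the dashed line the median of all genes. Outside the heat shock row, Fos and Btg2 stand to the right of every other gene.

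Cell type markers were read over the same pooled cells, in a comparison that called 69.1% of all listed genes higher and 24.1% lower. Higher calls among markers of Müller glia (69.2%) and of microglia and macrophages (66.7%) lay near that share of all genes. Rod markers were lower, with 11 of 11 listed called lower and a median log difference of -0.140, while cone, bipolar, amacrine and horizontal cell markers had 8 of 9, 9 of 11, 5 of 5 and 5 of 5 called higher, with medians of 0.0940, 0.101, 0.0674 and 0.0255 in the authors' deposited table. Markers of glia, immune cells and vessels had medians near the median gene, but Müller and vascular markers spread as widely as the 5 genes. Müller glia had 9 higher and 4 lower calls with a median of 0.0113, from -0.0288 for Aqp4 to 0.0801 for Vim in the authors' deposited table. Endothelial cells and pericytes had 6 higher and 4 lower calls with a median of 0.00961, from -0.0522 for Igfbp7 to 0.0474 for Col4a1 in the authors' deposited table. Astrocytes had 3 higher calls with a median of 0.0101, and microglia and macrophages 8 higher and 4 lower with 0.00752, from -0.00387 to 0.0376, in the authors' deposited table. Ganglion cell markers had 3 higher and 2 lower calls with a median of 0.00955, pigment cell markers 4 higher and 1 lower with 0.00247, and 0 of 5 erythrocyte markers were listed in the authors' deposited table. The part of cell composition in the values of the 5 genes was not tested, since the table has no values by cell type.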

How the data were processed

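Per the submitters' processing notes, the authors worked on GRCm38 with Cell Ranger, DESeq2 and Seurat 3.1.4; they do not say what each tool did, and no source used here states the test, the filters on cells or how doublets were treated. One deposited table of the authors' own KO against WT comparison, with no values per library, was used. Its deposited log difference was read as a natural log, by the convention of that Seurat version. The deposited fractions of cells above 0 were converted to percent. The deposited raw and adjusted p-values have a quotient of 2000 in all 1554 rows with an adjusted p between 0 and 1, as for 2000 features, 198 of which are not listed; the largest raw p is 0.00938. What was treated as a replicate is not stated, and p-values over cells would not measure the spread between libraries. Calls are at an adjusted p under 0.05.

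The 5 genes, the gene lists and the motifs were chosen with earlier results of these data known. The genes named are the 5 and the 2 nearest each in the 2 shares. Up to 4 called genes per early response list were also named, by absolute log difference. Abca1 was named as the targeted gene, and Lhx1 for its shares. Aqp4, Vim, Igfbp7 and Col4a1 were named as the ends of their lists' ranges. Jun, Id1, Thbs1, Vgf and Edn1 were named after their values were seen. Gene positions are from GENCODE M21. Promoters are from the RefSeq table of GRCm38.p6, in which 4 genes matched by symbol and Cyr61 by synonym. Ranks, medians and motif matches were computed with Python 3.11.15 and pandas 2.3.3, and the motif search and Benjamini-Hochberg adjustment were tested on simulated data. A planned comparison of the proteins was not made. Alternatives were a threshold of 0.001, Benjamini-Hochberg adjustment, a minimum log difference of 0.01, reading against the table's median, and bands of 5 or 10 points of WT share.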

Additional observations from a re-analysis of the deposited data

How the results depend on the processing

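The calls of all 5 genes were the same at a threshold of 0.001, where the share of all genes called was not computed. They were also the same under Benjamini-Hochberg adjustment, which could not change them. With raw p of at most 0.00938 over 2000 features, that adjustment calls every listed gene. A minimum absolute log difference of 0.01 left 4 of the 5 calls, without Atf3. Read against the median of all genes, 2 of the 5 were lower and not 1, since Atf3 turned to -0.00355; against genes with a WT share within 5 points it was -0.00734 and within 10 points -0.00682, while Fos, Junb, Btg2 and Cyr61 kept their direction under these readings. With the 5 genes included, the early response lists held 28 higher and 10 lower calls. Under Benjamini-Hochberg adjustment they held 30 and 12, which is all 42 listed genes, but that adjustment calls all 1802 genes of the table. The main calls became 13 higher and 25 lower against the median of all genes. By construction, that reading turns values between 0 and the median. With the minimum of 0.01 they became 13 higher and 2 lower, and the median of all genes, 0.010, lies at that minimum. The share of all genes was not computed under either reading, so these counts, and the 4 of 5 above, have no background. Leaving out single libraries was not run, because no values per library were analysed. No paired analysis was possible, because the comparison holds no values per library. The replicate numbers in the library titles do not state a pairing of WT with KO. Depth and cell numbers are unknown, so what they limit could not be stated.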
